A study of Mus musculus with 8 samples.

Results

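The *Zscan4* genes are a family of near-identical copies on mouse chromosome 7. All genes whose GENCODE symbol starts with *Zscan4* were taken, 9 of the 55385 genes in the count table. They comprise 6 lettered copies (*Zscan4a*, *Zscan4b*, *Zscan4c*, *Zscan4d*, *Zscan4e* and *Zscan4f*) and 3 numbered copies (*Zscan4-ps1*, *Zscan4-ps2* and *Zscan4-ps3*). The family was chosen by its measured difference between knockdown (KD) and control libraries, so its levels and log2 fold changes are given as a description, without a test.

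RNA-seq was carried out on wild-type R1 mouse embryonic stem cells (mESCs), a single established line grown in N2B27 medium with 2i and Lif. Cells were exposed to a lentivirus for a few hours on each of 2 days and were kept in puromycin for 3 days. The virus carried shRNA1, which targets the 3′ UTR of the splicing factor gene *Eftud2* (3 libraries), shRNA2, which targets its coding sequence (3 libraries), or nt-shRNA, a hairpin with no target (2 libraries). The libraries are labelled as biological replicates, and the 3 groups differed in nothing else that the labels state.

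ZSCAN4 proteins carry a SCAN domain, through which such proteins pair, followed by zinc fingers that bind DNA. The genes are transcribed when the mouse embryo first activates its genome at the two-cell stage. In mESC cultures they switch on for a short time in a small fraction of the cells, together with other two-cell genes, and they are known for telomere lengthening by recombination and for keeping the karyotype stable. In bulk RNA, more cells in that state and more RNA per such cell cannot be told apart.

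The 9 copies lie within 819871 bases of GRCm38, from 10794242 to 11614112 on chromosome 7. *Zscan4a* is the first copy and *Zscan4-ps3* the last, 5 copies are on the minus strand and 4 on the plus strand, and between 54591 and 140218 bases separate one copy from the next. The GENCODE M21 annotation calls 8 of the 9 protein coding and *Zscan4a* an unprocessed pseudogene. RefSeq lists 4 as protein coding (*Zscan4b*, *Zscan4c*, *Zscan4d* and *Zscan4f*) and the other copies as pseudogenes. No exon of another gene overlaps any of the 9. The copies with a coding sequence hold 505 or 506 codons.

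The transcripts of any pair of copies were between 96.6% and 99.8% identical (median 97.5%), and 111 of 1710 aligned positions differed between copies. *Zscan4b* and *Zscan4d* were the least alike, and *Zscan4f* and *Zscan4-ps2* the most alike. The stretch of 60 bases from the GENCODE transcripts shown here was picked because it held 12 variable positions, so that it shows which bases let a fragment be assigned to 1 copy. Capitals mark bases that differ from *Zscan4c*. *Zscan4-ps2* carried the same 60 bases as *Zscan4c*, and *Zscan4e* the same as *Zscan4b*. This stretch by itself therefore does not separate the copies of such a pair, and a fragment needs differing bases outside it to be assigned.

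Zscan4a (chr7:10795661-10795720, minus strand): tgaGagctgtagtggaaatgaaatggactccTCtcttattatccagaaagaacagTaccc
Zscan4b (chr7:10901659-10901718, minus strand): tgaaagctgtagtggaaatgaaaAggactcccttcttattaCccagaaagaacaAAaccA
Zscan4c (chr7:11009072-11009131, plus strand): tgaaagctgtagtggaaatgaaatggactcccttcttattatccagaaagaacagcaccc
Zscan4-ps1 (chr7:11066305-11066364, minus strand): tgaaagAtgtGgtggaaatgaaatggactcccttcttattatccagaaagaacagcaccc
Zscan4d (chr7:11162786-11162845, minus strand): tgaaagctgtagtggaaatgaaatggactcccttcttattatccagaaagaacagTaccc
Zscan4e (chr7:11307288-11307347, minus strand): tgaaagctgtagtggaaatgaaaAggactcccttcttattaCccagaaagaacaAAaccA
Zscan4f (chr7:11401265-11401324, plus strand): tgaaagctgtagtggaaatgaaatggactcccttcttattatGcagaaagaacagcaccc
Zscan4-ps2 (chr7:11517635-11517694, plus strand): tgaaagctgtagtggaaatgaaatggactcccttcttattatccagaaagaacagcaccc
Zscan4-ps3 (chr7:11612635-11612694, plus strand): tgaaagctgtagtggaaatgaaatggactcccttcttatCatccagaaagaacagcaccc

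Only uniquely placed fragments were counted, so the count of a copy rests on the parts of its transcript that no other copy shares. Of all 100-base windows of a transcript, 10.5% were unique in *Zscan4f*, 15.9% in *Zscan4e*, 21.3% in *Zscan4b*, 25.4% in *Zscan4-ps2* and 27.2% in *Zscan4c*. The share was 47.8% in *Zscan4-ps3*, 60.9% in *Zscan4a*, 70.4% in *Zscan4d* and 76.6% in *Zscan4-ps1*. Every other window was shared with another *Zscan4* copy, and none with a gene outside the family alone. Differences between copies in level are therefore uncertain, whereas a copy is counted over the same windows in every library.

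The 250 bases before the start site are shown for the 4 copies RefSeq lists as protein coding, the copies for which a RefSeq promoter was found (GRCm38.p6). Capitals mark TATAAA, the letters of a TATA box, and TGATTCAA, letters from the binding motif of Dux, a homeobox factor that activates two-cell genes.

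Zscan4b (chr7:10905051-10905300, minus strand): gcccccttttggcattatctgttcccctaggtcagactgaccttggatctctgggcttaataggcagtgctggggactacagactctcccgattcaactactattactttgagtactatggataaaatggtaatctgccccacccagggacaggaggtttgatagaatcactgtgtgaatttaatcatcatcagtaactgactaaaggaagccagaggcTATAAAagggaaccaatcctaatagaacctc
Zscan4c (chr7:11005495-11005744, plus strand): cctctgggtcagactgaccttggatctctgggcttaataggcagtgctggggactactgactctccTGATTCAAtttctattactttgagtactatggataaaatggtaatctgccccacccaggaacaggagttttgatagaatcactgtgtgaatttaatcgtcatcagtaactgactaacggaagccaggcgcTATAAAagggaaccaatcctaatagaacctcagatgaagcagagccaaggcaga
Zscan4d (chr7:11166149-11166398, minus strand): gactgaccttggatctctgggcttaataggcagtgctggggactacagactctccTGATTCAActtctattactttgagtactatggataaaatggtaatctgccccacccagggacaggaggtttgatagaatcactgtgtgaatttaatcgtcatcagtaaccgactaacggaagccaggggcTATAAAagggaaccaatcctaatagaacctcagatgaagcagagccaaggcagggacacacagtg
Zscan4f (chr7:11397665-11397914, plus strand): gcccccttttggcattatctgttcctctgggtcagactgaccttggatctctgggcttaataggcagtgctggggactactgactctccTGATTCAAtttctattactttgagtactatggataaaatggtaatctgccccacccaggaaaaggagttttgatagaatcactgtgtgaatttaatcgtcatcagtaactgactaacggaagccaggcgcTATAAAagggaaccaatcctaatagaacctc

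TATAAA was found in 4 of the 4 promoters and in 12.4% of the 32851 promoters of all genes in the table, searched on both strands over the same length. TGATTCAA was found in *Zscan4c*, *Zscan4d* and *Zscan4f* and in 0.539% of all promoters. Counted from the start site, it began at position -184 in *Zscan4c*, -195 in *Zscan4d* and -161 in *Zscan4f*, and TATAAA at -54, -65 and -31. The matches did not overlap each other. TGCACAC, letters of the motif bound by ZSCAN4 itself, and TAATCC, letters bound by OTX-type and OBOX-type homeobox factors, were in none of the 4 windows and in 3.67% and 6.25% of all promoters. The 4 windows were between 94.7% and 99.6% identical to each other, with *Zscan4c* and *Zscan4f* the closest pair.

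Total counts ran from 19569525 to 29871048 per library, and 3 counts corresponded to between 0.105 and 0.148 CPM (counts relative to library size, after edgeR's TMM scaling). *Eftud2* itself was at 262.3 and 255.7 CPM in the nt-shRNA libraries, at 231.9, 229.2 and 225.3 CPM with shRNA1, and at 198.2, 202.1 and 234.7 CPM with shRNA2. Each KD library was lower than the 2 control libraries. For shRNA1 the log2 difference was -0.18 (adjusted p = 0.0514, edgeR's quasi-likelihood test), and for shRNA2 it was -0.29 (adjusted p = 0.00122, same test). With a replicate block the shRNA1 value was called (-0.21, adjusted p = 0.0206, edgeR). It was also called with no filter on low counts (-0.18, adjusted p = 0.03, edgeR) and with only the groups compared (-0.16, adjusted p = 0.0491, edgeR). Leaving out shRNA2 replicate 2 or shRNA2 replicate 3 gave a call as well. By qPCR the study reported a larger reduction of *Eftud2* RNA with each hairpin, and by western blot less EFTUD2 protein. All 8 markers of mESCs were detected, with a summed level between 6583 and 6974 CPM over the libraries.

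The *Zscan4* RNA was higher with both hairpins, and highest with shRNA1. Summed over the 9 copies, the level was 16.2 and 14.2 CPM in the nt-shRNA libraries. With shRNA1 it reached 95.6, 95.7 and 70.2 CPM, and with shRNA2 49.1, 49.2 and 70.2 CPM. Every KD library was above both controls, and the lowest shRNA1 library met the highest shRNA2 library at 70.2 CPM.

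**Figure D1:**
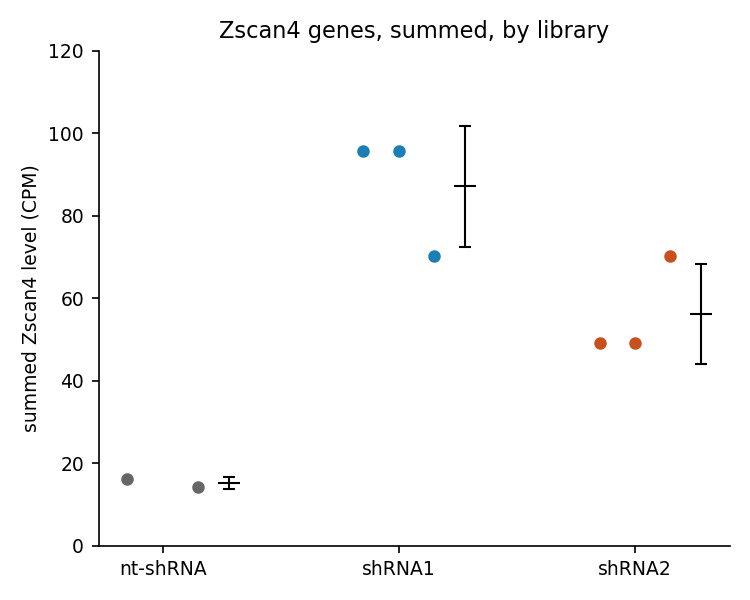
Summed level of the 9 *Zscan4* genes in CPM for each library (coloured points) by group, with the group mean and SD in black to the right (n = 2 for nt-shRNA, n = 3 for each *Eftud2* shRNA). The nt-shRNA libraries sit at 16.2 and 14.2 CPM, and the KD libraries between 49.1 and 95.7 CPM, with shRNA1 and shRNA2 touching at 70.2 CPM.

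The group means were 15.2 ± 1.42 CPM with nt-shRNA (SD, n = 2), 87.2 ± 14.7 CPM with shRNA1 (SD, n = 3) and 56.2 ± 12.2 CPM with shRNA2 (SD, n = 3). The sum was higher than nt-shRNA by 2.52 on the log2 scale with shRNA1 (SE 0.155) and by 1.89 with shRNA2 (SE 0.155). Compared directly, shRNA2 was lower than shRNA1 by a log2 difference of -0.63 (SE 0.121). Leaving out shRNA2 replicate 3 moved this to -0.82, and leaving out shRNA2 replicate 2 to -0.54. Among the genes tested outside the family, the shRNA1 fold change of the sum ranked at 73 from the top and the shRNA2 fold change at 381. In raw fragments the sum rested on 432 and 407 counts with nt-shRNA and on between 1056 and 2120 counts in the KD libraries.

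All 9 copies passed the filter on low counts, as did 17445 genes in all. Each copy was higher in every shRNA1 library than in either control, a pattern seen in 26.6% of all genes tested. Likewise each was higher in every shRNA2 library, a pattern seen in 35.4% of all genes. Since these contrasts chose the family, the counts of 9 of 9 are not read against those shares. In the fit over all genes, 13.8% were called higher and 17.1% lower with shRNA1, and 27.2% higher and 28.7% lower with shRNA2. Scaling by library size alone turned the split with shRNA1 from 2407 higher and 2981 lower to 4101 higher and 1713 lower, and the median log2 fold change of all genes moved from -0.01 to 0.11.

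*Zscan4c* and *Zscan4d*, both listed as coding by RefSeq, had the most counts. *Zscan4c* was at 2.70 and 2.58 CPM in the nt-shRNA libraries, at 20.3, 20.4 and 14.9 CPM with shRNA1, and at 11.4, 11.4 and 13.8 CPM with shRNA2. The 3 groups did not overlap for this copy, and its log2 fold changes were 2.80 (SE 0.168) and 2.21 (SE 0.172). *Zscan4d* was at 2.89 and 2.19 CPM with nt-shRNA, at 17.7, 20.6 and 12.8 CPM with shRNA1, and at 10.6, 10.8 and 13.7 CPM with shRNA2. Its KD libraries were all above the controls, while shRNA2 replicate 3 was above shRNA1 replicate 3. The log2 fold changes of *Zscan4d* were 2.74 (SE 0.202) and 2.20 (SE 0.207).

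*Zscan4f*, also coding, was at 1.61 and 1.71 CPM with nt-shRNA, at 12.8, 11.7 and 8.34 CPM with shRNA1, and at 6.32, 6.81 and 10.1 CPM with shRNA2. It rose by 2.71 (SE 0.235) and 2.22 (SE 0.241) on the log2 scale, close to the values of *Zscan4c* and *Zscan4d*. *Zscan4b*, the coding copy with the fewest counts, was at 0.525 and 0.453 CPM with nt-shRNA, at 2.66, 2.71 and 2.21 CPM with shRNA1, and at 1.07, 1.35 and 1.47 CPM with shRNA2. Its 2 control values rest on 14 and 13 fragments. For *Zscan4b* the log2 fold changes were 2.35 (SE 0.271) and 1.40 (SE 0.301), and the 3 groups did not overlap.

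Of the copies that RefSeq lists as pseudogenes, *Zscan4a* and *Zscan4e* had the most counts. *Zscan4a* was at 2.40 and 2.12 CPM with nt-shRNA, at 12.0, 10.4 and 9.48 CPM with shRNA1, and at 5.30, 6.18 and 9.87 CPM with shRNA2. *Zscan4e* was at 2.59 and 2.12 CPM, at 11.7, 12.8 and 8.91 CPM, and at 5.67, 3.92 and 8.26 CPM in the same order. Their log2 fold changes were 2.22 (SE 0.223) and 2.23 (SE 0.243) with shRNA1 and 1.65 (SE 0.230) and 1.34 (SE 0.255) with shRNA2. Both lay above their controls in every KD library, and *Zscan4e* did not overlap between the hairpins.

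*Zscan4-ps2* lay between 1.43 and 1.61 CPM with nt-shRNA, between 6.67 and 9.07 CPM with shRNA1 and between 3.53 and 5.83 CPM with shRNA2 (log2 fold changes 2.39, SE 0.219, and 1.59, SE 0.231). *Zscan4-ps3* lay between 0.976 and 1.24 CPM, between 4.88 and 7.22 CPM and between 3.20 and 5.28 CPM (2.51, SE 0.253, and 1.89, SE 0.264). *Zscan4-ps1* lay between 0.592 and 0.637 CPM, between 1.68 and 2.30 CPM and between 1.26 and 1.84 CPM. It had the smallest log2 fold changes of the family with each hairpin, 1.67 (SE 0.277) and 1.29 (SE 0.290), and the largest share of unique sequence.

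**Figure D2:**
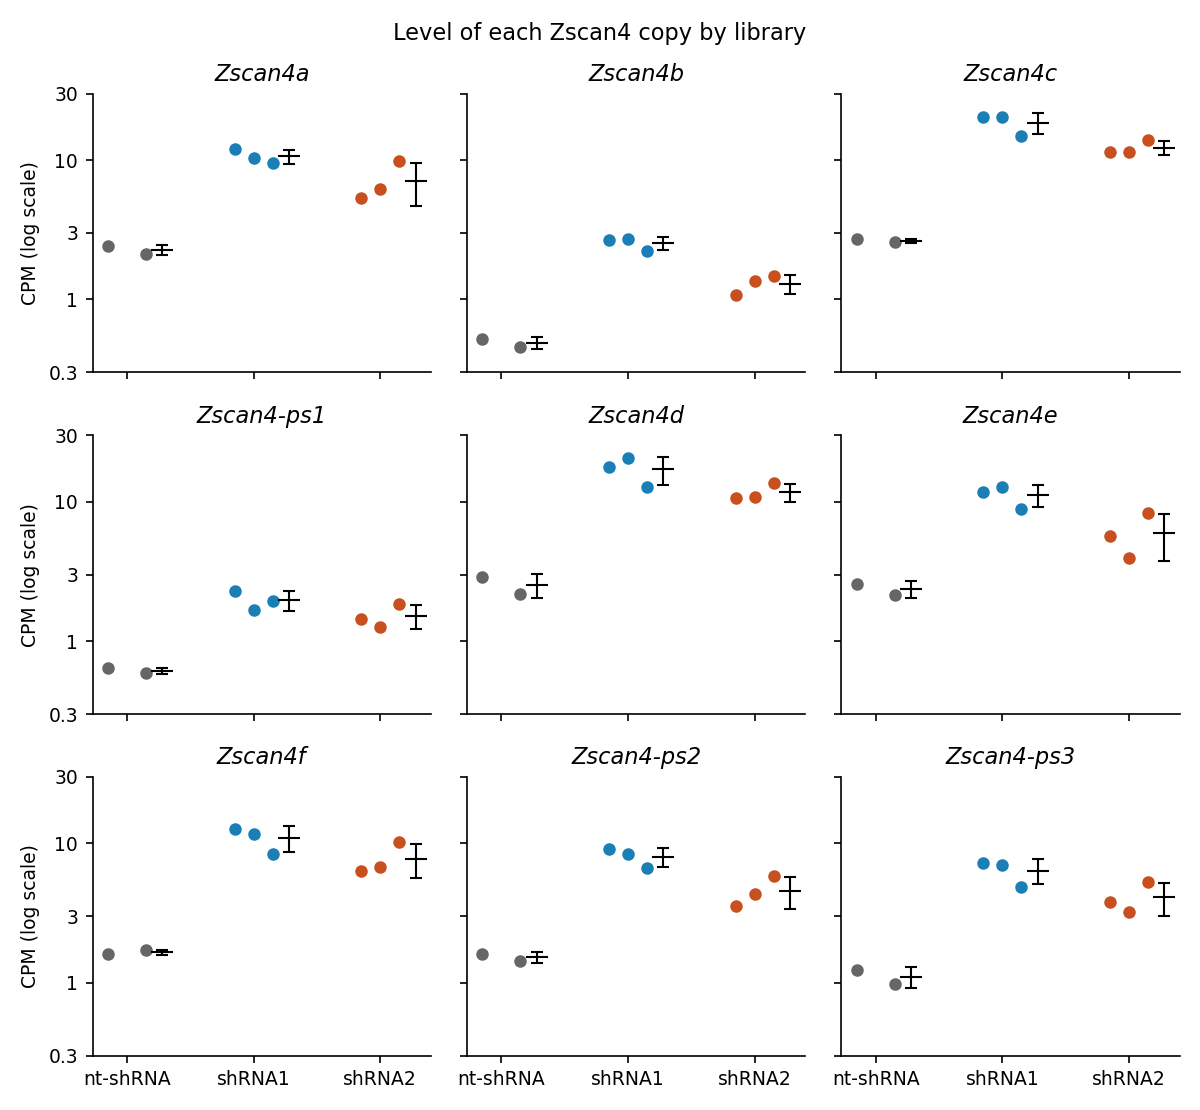
Level of each *Zscan4* copy in CPM (log axis, the same in every panel), in genome order, with 1 point per library by group and the group mean and SD in black (n = 2 for nt-shRNA, n = 3 for each *Eftud2* shRNA). In each panel all 6 KD libraries lie above both nt-shRNA libraries, and *Zscan4b* and *Zscan4-ps1* have the lowest CPM.

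Over the 9 copies the log2 fold change with shRNA1 ran from 1.67 to 2.80 (median 2.39), against a median of -0.01 over all genes tested. With shRNA2 it ran from 1.29 to 2.22 (median 1.65), against 0.00 over all genes. The direct difference of shRNA2 from shRNA1 was below 0 for each copy, from -0.95 for *Zscan4b* to -0.38 for *Zscan4-ps1* (median -0.60). *Zscan4b*, *Zscan4c*, *Zscan4e* and *Zscan4-ps2* were lower in every shRNA2 library than in every shRNA1 library, 4 of 9 copies, where 24.1% of all genes showed that pattern. The other 5 copies overlapped between the hairpins, in each case through replicate 3 of shRNA2. In this direct comparison, 16.9% of all genes were called higher and 18.7% lower with shRNA2.

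**Figure D3:**
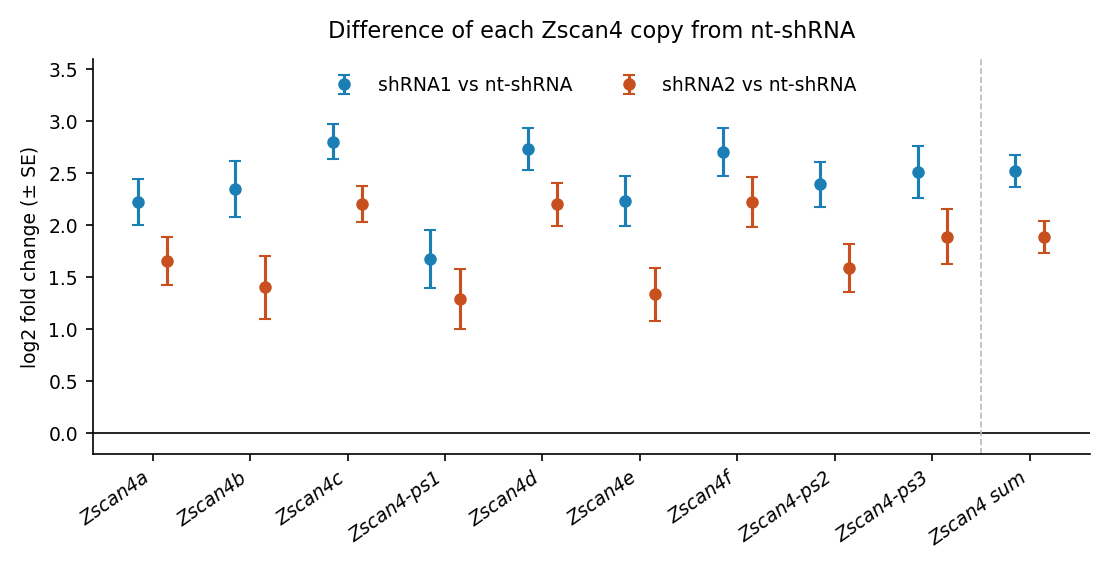
Log2 fold change from nt-shRNA of each *Zscan4* copy and of their sum, with its standard error derived from edgeR's test, for shRNA1 (blue) and shRNA2 (orange). All values lie above 0, from 1.29 to 2.80 over the copies, and the shRNA1 value is the higher one for each copy.

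Levels of different copies are compared per kilobase of exon. With nt-shRNA, *Zscan4e* was at 1.31 CPM per kilobase, followed by *Zscan4c* (1.16), *Zscan4d* (1.12), *Zscan4a* (0.993), *Zscan4f* (0.847), *Zscan4-ps2* (0.668), *Zscan4-ps3* (0.486), *Zscan4-ps1* (0.305) and *Zscan4b* (0.271). With shRNA1, *Zscan4c* came first at 8.15 ± 1.37 CPM per kilobase (SD, n = 3), then *Zscan4d* at 7.50 ± 1.72, *Zscan4e* at 6.21 ± 1.12 and *Zscan4f* at 5.58 ± 1.18. The copies were measured in the same libraries, so these SDs are not the spread of a difference between copies. In each shRNA1 library *Zscan4d* was above *Zscan4e*, and *Zscan4f* was above *Zscan4a* (4.65 ± 0.549). The order of *Zscan4c* and *Zscan4d*, and that of *Zscan4e* and *Zscan4f*, changed between the shRNA1 libraries. *Zscan4-ps2* (3.53 ± 0.543) and *Zscan4-ps3* (2.80 ± 0.567) followed, and *Zscan4b* (1.40 ± 0.154) and *Zscan4-ps1* (0.977 ± 0.155) were lowest. With shRNA2, *Zscan4c* and *Zscan4d* again led at 5.36 ± 0.612 and 5.14 ± 0.778 CPM per kilobase (SD, n = 3). The order depended on the unique sequence. Per 1000 unique 100-base windows, *Zscan4f* came first with shRNA1 at 60.1 CPM, then *Zscan4e* at 42.7 and *Zscan4c* at 31.3, while *Zscan4d* was at 11.1 and *Zscan4-ps1* at 1.34. The reads were paired, so either read of a pair can place a fragment. Single windows therefore understate the sequence that assigns fragments, and neither order is taken as the true one.

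The makeup of the family's counts comes from the same counts that chose the genes, so it is given as a description, without a test. The copies RefSeq lists as protein coding held 47.7% and 48.9% of the *Zscan4* counts with nt-shRNA. They held 55.8%, 57.9% and 54.6% with shRNA1 and 59.8%, 61.6% and 55.8% with shRNA2. All 6 KD libraries were thus above both controls, by 9.29 percentage points in the mean (57.6% against 48.3%). The 95% Wilson interval of a single library ran from 43.0% to 52.4% and from 44.1% to 53.7% in the controls. The intervals of 3 KD libraries overlapped that of nt-shRNA replicate 2, namely shRNA1 replicate 3 (from 52.4% to 56.8%), shRNA2 replicate 3 (from 53.2% to 58.2%) and, at its edge, shRNA1 replicate 1 (from 53.73% to 57.95%, against 53.74%). These intervals cover counting error only.

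*Zscan4c* held 16.7% and 18.2% of the counts in the controls and between 19.7% and 23.2% in the KD libraries. *Zscan4d* held 15.5% and 17.8% against between 18.3% and 21.9%. *Zscan4e* went furthest the other way, from 15.97% and 14.99% in the controls to between 7.97% and 13.4%. Shares of *Zscan4a*, *Zscan4b*, *Zscan4-ps1* and *Zscan4-ps2* were also below both controls in each KD library, and those of *Zscan4f* and *Zscan4-ps3* overlapped. Since the shares of a library add up to the whole, they are not independent of each other.

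**Figure D4:**
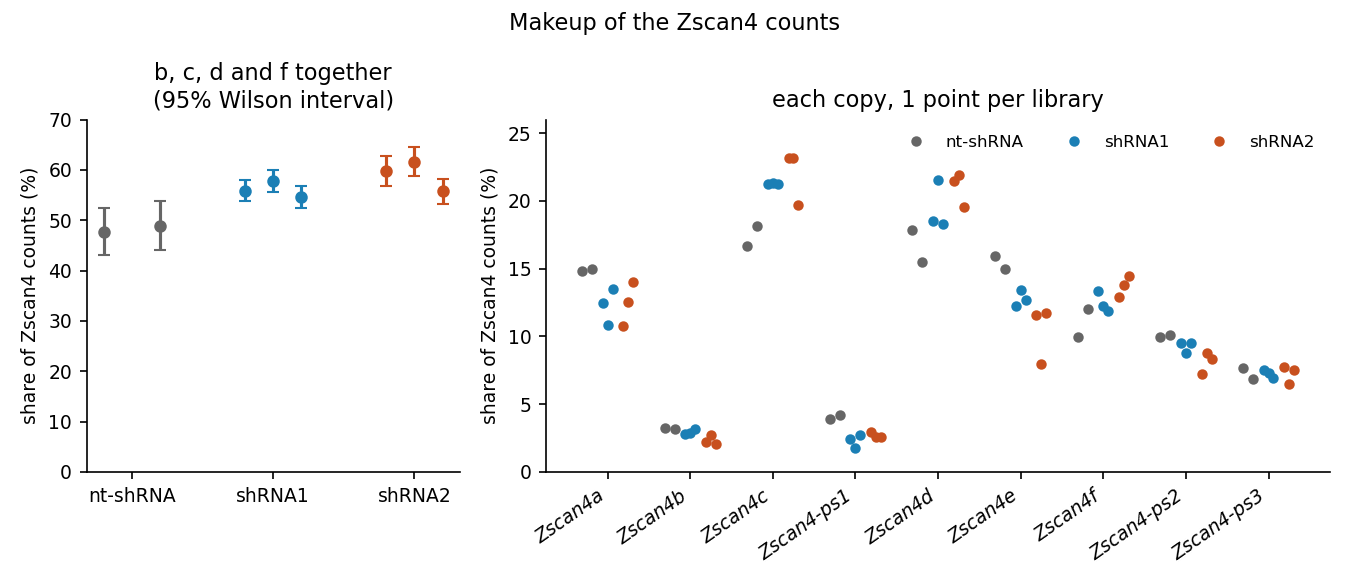
Share of all *Zscan4* counts of a library, in percent, held by *Zscan4b*, *Zscan4c*, *Zscan4d* and *Zscan4f* together (left, with the 95% Wilson interval of each library) and by each copy (right, 1 point per library). The 4 coding copies together hold 47.7% and 48.9% with nt-shRNA and between 54.6% and 61.6% in the KD libraries.

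Factors known to switch on *Zscan4* did not all follow its level. *Duxf3*, the Dux homeobox gene that activates two-cell genes, was at 0.712 and 0.523 CPM with nt-shRNA, at 1.26, 1.43 and 1.21 CPM with shRNA1, and at 0.465, 0.361 and 0.597 CPM with shRNA2. It was therefore higher with shRNA1 only, by 1.07 on the log2 scale (SE 0.296, adjusted p = 0.00994, edgeR). With shRNA2 the difference was -0.37 (adjusted p = 0.389, edgeR), and the direct difference of shRNA2 from shRNA1 was -1.44 (adjusted p = 8.6e-04, edgeR). These values rest on 8 to 34 fragments per library of a gene with further near-identical copies. The shRNA1 call was lost without nt-shRNA replicate 2 (0.86, adjusted p = 0.118, edgeR) and with DESeq2 (1.08, adjusted p = 0.0619).

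*Dppa2*, a chromatin factor that binds the *Dux* promoter, was at 22.12 and 20.97 CPM with nt-shRNA, at 39.6, 39.0 and 30.6 CPM with shRNA1, and at 58.5, 64.2 and 52.0 CPM with shRNA2. The 3 groups did not overlap, and the order of the hairpins was opposite to that of the *Zscan4* sum. *Dppa2* rose by 0.75 with shRNA1 and 1.43 with shRNA2 on the log2 scale (adjusted p = 4.2e-05 and 3.1e-09, edgeR), and by 0.68 from shRNA1 to shRNA2 (adjusted p = 2.2e-05, edgeR). *Dppa4*, its partner, did not pass the test with either hairpin (0.04 and 0.15, adjusted p = 0.634 and 0.0532, edgeR), but was called with shRNA2 under library size alone (0.24, adjusted p = 0.00316, edgeR) and with a replicate block (0.18, adjusted p = 0.0207, edgeR). *Nelfa*, a subunit of the negative elongation factor that is known to activate *Dux*, rose by 0.43 and 0.49 (adjusted p = 3.8e-05 and 1.7e-06, edgeR). *Trp53*, whose protein p53 can activate *Dux* after DNA damage, was called only with shRNA2 (0.62, adjusted p = 2.6e-06, against 0.11, adjusted p = 0.328, with shRNA1, edgeR). The direct difference for *Trp53* was 0.51 (adjusted p = 2.8e-05, edgeR), and library size alone also called shRNA1 (0.22, adjusted p = 0.041, edgeR). These are RNA values, and the study reported more p53 protein with either *Eftud2* hairpin than with nt-shRNA. In all, 3 of 5 activators were called higher with each hairpin, where 13.8% of all genes were with shRNA1 and 27.2% with shRNA2, and none lower, against 17.1% and 28.7%.

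**Figure D5:**
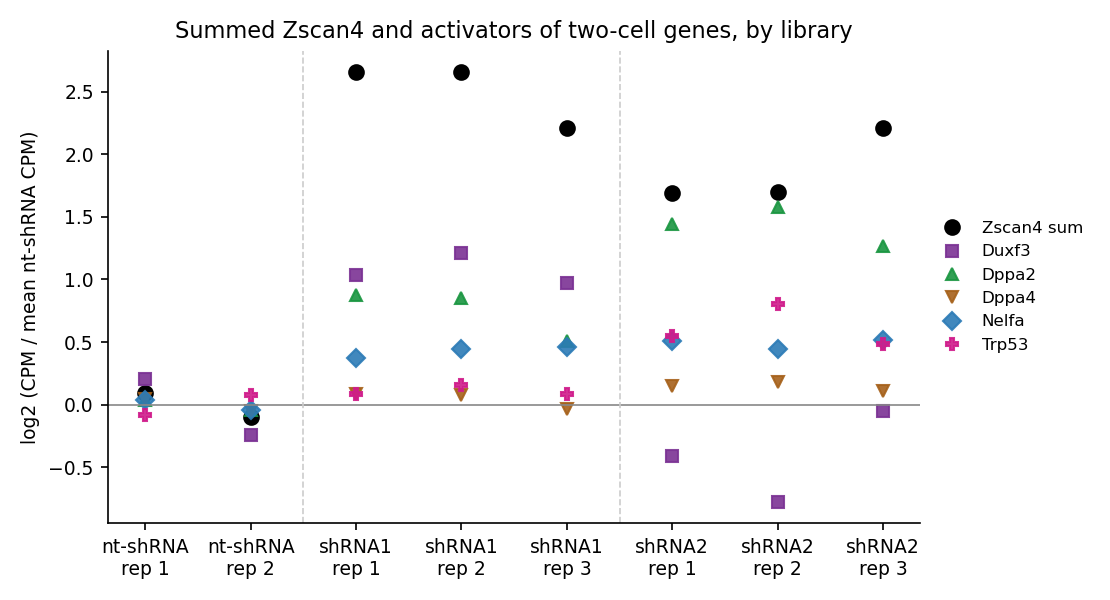
Level of the *Zscan4* sum and of 5 activators of two-cell genes in each library, as log2 of the CPM over the mean CPM of the nt-shRNA libraries (1 point per library). The *Zscan4* sum is highest in shRNA1 replicates 1 and 2, *Duxf3* is above its controls in the 3 shRNA1 libraries only, and *Dppa2* is higher in each shRNA2 library than in any shRNA1 library.

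Of 20 genes known to hold two-cell genes down, 2 were called higher and 6 lower with shRNA1, and 8 higher and 7 lower with shRNA2. Of all genes, 13.8% were called higher and 17.1% lower with shRNA1, and 27.2% and 28.7% with shRNA2, so 2 and 7 of 20 lie near the shares over all genes. With library size alone the shRNA1 split turned to 7 higher and 3 lower, where that of all genes turned to 4101 higher and 1713 lower. The median log2 fold changes were 0.00 and -0.03, against -0.01 and 0.00 over all genes. *Ehmt2*, the H3K9 methyltransferase G9a, fell by 0.39 and 0.59 on the log2 scale (adjusted p = 4.5e-04 and 1.4e-06, edgeR). *Sumo2*, a SUMO modifier, fell by 0.30 and 0.33 (adjusted p = 9.4e-04 and 1.3e-04, edgeR). *Setdb1*, another H3K9 methyltransferase, rose by 0.31 and 0.45 (adjusted p = 9.4e-04 and 6.2e-06, edgeR). *Trim28*, the corepressor that recruits SETDB1, rose by 0.20 and 0.53 (adjusted p = 0.0207 and 8.7e-07, edgeR), and its shRNA1 call was lost without shRNA1 replicate 2 or without either nt-shRNA library. *Lin28a*, an RNA-binding protein, fell by 0.60 with shRNA1 (adjusted p = 5.4e-04, edgeR) and differed between the hairpins by 0.96 (adjusted p = 2.7e-06, edgeR). With shRNA2 its value was 0.36 (adjusted p = 0.0109, edgeR), a call lost with DESeq2 and without shRNA2 replicate 2 or nt-shRNA replicate 2. *E2f6*, a repressor of germline genes, was called with shRNA2 (0.52, adjusted p = 1.0e-05, edgeR) and had 0.19 with shRNA1 (adjusted p = 0.0592, edgeR), which library size alone and a replicate block called (0.31 and 0.24, adjusted p = 0.0047 and 0.0135, edgeR).

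Two-cell genes outside the family were higher too. Of 29 genes listed, 25 could be tested. The list was chosen with earlier results of these data known, and it holds related genes such as *Usp17la* and *Usp17lb*. In the nt-shRNA libraries *Tdpoz4* had 1 and 2 counts, *Pramef6* 5 and 3, *Tdpoz3* 9 and 11, and *B020004J07Rik* 7 and 10. These genes passed the filter on low counts only through their KD libraries. The numbers of calls in this list are therefore given as a description. With shRNA1, 25 were called higher and none lower, where 13.8% of all genes were called higher. With shRNA2, 23 were called higher and none lower, against 27.2% of all genes. With each library left out in turn, this count ran from 18 to 24. Median log2 fold changes were 1.83 and 1.27. In the direct comparison 3 were higher and 11 lower with shRNA2, against 16.9% and 18.7% of all genes (median -0.48). *Tmem92*, a membrane protein gene, rose by 1.67 with shRNA1 and 1.01 with shRNA2 on the log2 scale, and *Usp17lb*, a deubiquitinase gene, 1.89 and 1.22. *Gm5662*, *Gm2016* and *Gm8300* rose by 2.24, 2.44 and 2.37 with shRNA1 and by 2.34, 2.70 and 2.39 with shRNA2. Their direct differences of 0.10, 0.26 and 0.03 did not pass the test. *Sp110*, a nuclear body protein gene, went the other way, with 2.16 and 3.18 (direct difference 1.02, adjusted p = 8.9e-05, edgeR).

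The genes whose level followed the *Zscan4* sum most closely over the 8 libraries were found by the Pearson correlation of log2 CPM. The libraries of a group share their hairpin, so these 8 points are not independent. The 8 highest were *AC148019.3* (r = 0.993), *Spz1* (0.992), *Gm5580* (0.992), *Usp17lc* (0.989), *Gm14742* (0.989), *Gm5039* (0.986), *Usp17lb* (0.986) and *Traf1* (0.984). Each copy of *Zscan4* itself correlated with the sum by between 0.960 (*Zscan4e*) and 0.997 (*Zscan4-ps3*). *Spz1*, a transcription factor gene of the testis, was at 1.35 and 1.04 CPM with nt-shRNA, at 4.33, 4.74 and 3.46 CPM with shRNA1, and at 2.93, 3.11 and 3.49 CPM with shRNA2. As for the *Zscan4* sum, replicate 3 was the lowest of the shRNA1 libraries and the highest of the shRNA2 libraries. *Traf1*, an adaptor of tumour necrosis factor receptors, lay between 4.25 and 4.54 CPM, between 10.7 and 11.4 CPM and between 7.12 and 9.09 CPM in the same order.

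Within 500 kb of the family lie 102 other genes, most of them pseudogenes, and 44 of these sit between *Zscan4* copies. Only 5 of the 102 could be tested, and 33 of the 44 had no count in any library. *Gm6909*, a pseudogene between *Zscan4d* and *Zscan4e*, was at 5 and 2 counts with nt-shRNA, at 19, 20 and 19 counts with shRNA1, and at 21, 13 and 14 counts with shRNA2. It was called higher with both hairpins (log2 fold changes 2.66 and 2.49, adjusted p = 3.7e-04 and 3.2e-04, edgeR) and shares no 31-base word with a *Zscan4* transcript. *Gm7789*, a pseudogene between *Zscan4b* and *Zscan4c*, fell with shRNA2 by 2.49 on the log2 scale (adjusted p = 1.7e-05, edgeR), from 28 and 40 counts to 6, 5 and 3. *Gm17737*, outside the family's span, was called higher with shRNA2 (1.20, adjusted p = 0.00995, edgeR), but not with DESeq2 (adjusted p = 0.0514) or without nt-shRNA replicate 2 (0.78, adjusted p = 0.163, edgeR). It shares 84 of its 1117 words of 31 bases with *Zscan4*. *Gm18204*, inside the span, did not pass the test (1.16 and 1.17, adjusted p = 0.0912 and 0.0607, edgeR), but was called with shRNA2 under library size alone (1.25, adjusted p = 0.044, edgeR) and without shRNA2 replicate 2 or nt-shRNA replicate 1. *Zik1*, a zinc finger gene and the one of the 5 with the most counts, did not pass the test (-0.05 and 0.21). Called genes were thus 1 higher and none lower with shRNA1, and 2 higher and 1 lower with shRNA2, where of all genes 13.8% and 17.1%, and 27.2% and 28.7%, were called. *Gm6909*, *Gm18204* (7 and 3 counts with nt-shRNA) and *Gm17737* (13 and 7) passed the filter on low counts only through their KD libraries. The higher calls and the median log2 fold changes of the 5 (0.93 and 1.17) therefore lean on this filter. They are given as a description and are not read against the medians of -0.01 and 0.00 over all genes. Inside the span, *Gm6909* and *Gm7789* moved in opposite directions with shRNA2, while with shRNA1 *Gm7789* did not pass the test (-0.62, adjusted p = 0.115, edgeR).

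Of 25 other genes with a SCAN-type symbol that were tested, 7 were called higher and none lower with shRNA1, and 8 higher and 1 lower with shRNA2, with median log2 fold changes of 0.12 and 0.09. Over all genes 13.8% were higher and 17.1% lower with shRNA1, and 27.2% and 28.7% with shRNA2, so the count higher with shRNA2 lies near the share over all genes. The shRNA1 count was 1 without nt-shRNA replicate 1, 3 without shRNA1 replicate 1 and 4 without shRNA1 replicate 2. *Zscan10*, a stem cell transcription factor gene, was at 32.2 and 35.5 CPM with nt-shRNA, at 41.7, 45.4 and 45.6 CPM with shRNA1, and at 82.5, 107.0 and 76.5 CPM with shRNA2. *Zscan10* rose by 0.39 with shRNA1 (adjusted p = 0.0114, edgeR, lost without nt-shRNA replicate 1) and by 1.39 with shRNA2 (adjusted p = 5.2e-09, edgeR), so the larger value was that of shRNA2, unlike *Zscan4*. *Zscan18* followed with 0.33 and 0.68, and *Zkscan1* with 0.31 and 0.46. *Zscan26* had 0.27 and 0.62, and *Zscan5b* had 0.95 with shRNA1 and did not pass the test with shRNA2 (0.56). For each of these 4 genes, the shRNA1 call was lost with at least 1 library left out.

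Genes of telomere upkeep and recombination, the processes for which *Zscan4* is known, were called in both directions, about as often as all genes. Of 22 tested, 4 were called higher and 4 lower with shRNA1, and 6 higher and 6 lower with shRNA2, with medians of -0.06 and -0.04. Over all genes the shares were 13.8% higher and 17.1% lower with shRNA1, and 27.2% and 28.7% with shRNA2. With library size alone the list had 6 higher and 1 lower with shRNA1, and 6 higher and 3 lower with shRNA2. That scaling called 4101 of all 17445 genes higher and 1713 lower with shRNA1, and 5850 and 4077 with shRNA2. The list's shRNA1 count of 8 fell to 4 without shRNA1 replicate 2, to 3 without nt-shRNA replicate 1 and to 4 without nt-shRNA replicate 2. *Dkc1*, dyskerin of the telomerase complex, was at 415.8 and 388.7 CPM with nt-shRNA, at 260.6, 231.0 and 250.9 CPM with shRNA1, and at 224.2, 242.4 and 221.9 CPM with shRNA2. It fell by 0.70 and 0.81 on the log2 scale (adjusted p = 3.4e-07 and 6.7e-09, edgeR). *Smc1b*, a meiotic cohesin subunit, was called lower with shRNA2 (-1.27, adjusted p = 7.6e-07, edgeR) and had -0.35 with shRNA1 (adjusted p = 0.065, edgeR, called with a replicate block at -0.42, adjusted p = 0.03). *Dmc1*, the meiotic recombinase, was lower with shRNA2 as well (-1.05, adjusted p = 2.3e-06, edgeR), and its shRNA1 call (-0.36, adjusted p = 0.0392, edgeR) was lost with DESeq2, with library size alone and in 5 of the fits with a library left out. *Pot1b*, which caps telomeric single strands, rose by 0.40 and 0.81 (adjusted p = 0.0111 and 6.7e-06, edgeR), its shRNA1 call being lost without nt-shRNA replicate 1. *Rtel1*, a helicase of telomere ends, rose by 0.21 and 0.58 (adjusted p = 0.0294 and 1.0e-06, edgeR), and its shRNA1 call was lost with no filter on low counts (0.20, adjusted p = 0.0561, edgeR) and in 4 of the fits that left out a library. *Hormad1*, of the meiotic chromosome axis, rose by 0.45 and 0.37, calls that were lost without nt-shRNA replicate 1. *Rec8*, a meiotic cohesin subunit, rose by 0.40 with shRNA1 (adjusted p = 0.00309, edgeR) and was at -0.04 with shRNA2 (direct difference -0.44, adjusted p = 6.0e-04, edgeR). *Tert*, the telomerase reverse transcriptase, did not pass the test (-0.03 and 0.08).

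Markers of other cell types were measured in the same libraries. The 6 fibroblast markers summed to between 4.60 and 4.99 CPM with nt-shRNA, between 6.52 and 7.34 CPM with shRNA1 and between 6.28 and 7.57 CPM with shRNA2. The 6 primitive endoderm markers summed to between 44.5 and 45.9 CPM with nt-shRNA, between 42.6 and 48.8 CPM with shRNA1 and between 35.5 and 41.4 CPM with shRNA2. Each shRNA2 library was thus below both controls for the endoderm markers. The 6 trophoblast markers summed to 117.5 and 117.7 CPM with nt-shRNA and to between 86.8 and 111.0 CPM in the KD libraries. None of these genes was at 0 in all libraries. Of the 13 that could be tested, 1 was called higher and 1 lower with shRNA1, where 13.8% and 17.1% of all genes were, and 1 higher and 3 lower with shRNA2, against 27.2% and 28.7%. *Col1a2*, a fibroblast collagen gene, was the one called higher with each hairpin (1.27 and 1.66, adjusted p = 0.0103 and 4.3e-04, edgeR). *Krt7*, a keratin gene, was lower with each (-0.63 and -2.59, adjusted p = 0.00156 and 2.1e-10, edgeR), from a mean of 29.3 CPM to 18.8 and 4.88 CPM. *Gata6*, an endoderm factor, and *Hand1*, a trophoblast factor, were lower with shRNA2 (-0.75 and -1.62, adjusted p = 8.2e-04 and 4.5e-04, edgeR). *Tfap2c* and *Eomes*, both trophoblast factors, did not pass the test with either hairpin. The part of such cells in the *Zscan4* values was not tested.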

How the data were processed

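Per the labels and the methods of the study, poly(A) RNA of 8 libraries was sequenced and aligned with STAR to GRCm38. The authors deposited raw counts of fragments per gene, made with featureCounts 1.6.2 on GENCODE M24 exons, without strand, and without fragments that align to several places or to several genes. The deposited exon length served only for levels per kilobase. No per-sample column was left unused (0). Gene names came from GENCODE M21 by Ensembl identifier (55144 of 55385 matched), promoters from RefSeq (GRCm38.p6; 4 of the 9 *Zscan4* genes matched).

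The *Zscan4* genes and all gene lists were chosen with earlier results of these data known. Counts were tested in R 4.3.3 with edgeR 4.0.16 (filterByExpr with minimum count 10, TMM, glmQLFit and glmQLFTest, a coefficient per group and no block, 8 libraries, 17445 genes). A call needed a Benjamini-Hochberg adjusted p-value below 0.05. The family's sum was fitted in place of its copies. Standard errors (SE) were the absolute log2 fold change divided by the square root of the F statistic of edgeR's test. Alternatives were DESeq2 1.42.0, edgeR with DESeq2's size factors, scaling by library size alone, no filter, only the groups compared, a replicate block and each library left out. Code was tested on simulated data. Transcripts were aligned with mafft 7.526, and figures drawn with matplotlib 3.10.9. The log2 CPM of the correlations used a prior count of 2.

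Named beside the family were *Eftud2*, in each list other than the cell type markers the 4 tested genes with the smallest adjusted p-value per hairpin, and the 8 genes most correlated with the sum. *Tert*, *Zik1*, *Col1a2*, *Krt7*, *Gata6*, *Hand1*, *Tfap2c*, *Eomes*, *Dnmt1*, *Nanog*, *Klf4*, *Pou5f1* and *Dppa5a* were added after their values were seen. Within groups, the chi-square between a pair of libraries was 3.12 to 12.0 per gene, so none repeats another within sampling noise. The labels name no batch.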

Additional observations from a re-analysis of the deposited data

How the results depend on the processing

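The log2 fold change of the *Zscan4* sum ran from 2.42 to 2.66 with shRNA1, from 1.70 to 1.98 with shRNA2 and from -0.82 to -0.54 between the hairpins when each library was left out in turn. Under the other alternatives it ran from 2.51 to 2.63, from 1.87 to 1.98 and from -0.65 to -0.63. All 420 values of the sum and the copies under these alternatives kept their direction and moved by less than 1 SD of the replicates. Scaling by library size alone gave 4101 higher and 1713 lower genes with shRNA1, against 2407 and 2981 in the fit reported, and called 2 genes within 500 kb of the family with shRNA1 and 5 with shRNA2 (against 1 and 3). With a library left out, the genes called with shRNA1 ran from 1248 to 2649 higher and from 1700 to 3254 lower. Calls with shRNA1 ran from 3 to 9 for telomere and recombination genes (8 reported), and from 1 to 8 for the other SCAN-type genes (7 reported). Library size alone moved the median log2 fold change of all genes with shRNA1 from -0.01 to 0.11. The cause of the shifts with a library left out was not tested. A fit with a replicate block gave log2 fold changes of the sum of 2.51, 1.88 and -0.63, and called 2694 genes higher and 3324 lower with shRNA1. Deviations of same-numbered libraries correlated by between -0.03 and 0.07, so the numbers were not taken to pair the libraries. *Zscan4b* and *Zscan4-ps1*, the copies with the fewest fragments, had the largest standard errors of the 9 against nt-shRNA.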

Other observations

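Genes of DNA methylation, which is lower in mESCs while *Zscan4* is on, were called in both directions. Of 8 tested, 3 were called higher and 2 lower with shRNA1, where 13.8% and 17.1% of all genes were, and 4 higher and 3 lower with shRNA2, against 27.2% and 28.7%. *Tet2*, which oxidises methylcytosine, was at 110.0 and 110.9 CPM with nt-shRNA, at 160.9, 172.5 and 143.5 CPM with shRNA1, and at 346.4, 361.9 and 275.9 CPM with shRNA2. It was higher by 0.52 and 1.57 on the log2 scale (adjusted p = 3.4e-04 and 2.9e-10, edgeR), with the larger change in the hairpin that had the smaller *Zscan4* change. *Dnmt3b*, a de novo methyltransferase, had the same order (0.67 and 1.25, adjusted p = 1.8e-05 and 1.8e-09, edgeR). *Dnmt3l*, the cofactor of the de novo enzymes, fell by 0.54 and 0.61 (adjusted p = 3.6e-04 and 3.3e-05, edgeR), and *Uhrf1*, which guides maintenance methylation, fell by 0.35 and 0.44 (adjusted p = 4.9e-04 and 1.4e-05, edgeR). *Dnmt1*, the maintenance enzyme, did not pass the test (-0.07 and -0.12).

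Of the 8 stem cell markers, 3 were called higher and 2 lower with shRNA1 (13.8% and 17.1% of all genes), and 5 higher and 2 lower with shRNA2 (27.2% and 28.7% of all genes). *Nanog*, a pluripotency factor, rose by 0.55 and 0.76 on the log2 scale (adjusted p = 3.8e-06 and 1.3e-08, edgeR), and *Klf4*, another, by 0.65 and 1.32 (adjusted p = 3.7e-06 and 1.5e-10 for *Klf4*, edgeR). *Pou5f1*, which encodes OCT4, fell by 0.35 and 0.29 (adjusted p = 3.7e-04 and 8.6e-04, edgeR). *Dppa5a* fell by 0.34 and 0.96 (adjusted p = 0.00741 and 3.9e-08, edgeR). *Klf4* and *Dppa5a* thus had the larger change with shRNA2, whereas the *Zscan4* sum had it with shRNA1.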
